A study of Nothobranchius furzeri with 20 samples.

Results

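The 150 genes described here had their highest skin expression at 7 weeks of age in the turquoise killifish Nothobranchius furzeri, set against 5 and 10 weeks. They were chosen from measured values. A gene ID qualified when its mean over all 20 libraries lay between 1 and 2000 CPM (counts per 1000000 counts of the library) and when its lowest 7 weeks library exceeded its highest library of 5 and 10 weeks. Of 26739 gene IDs, 17203 lay within these bounds and 257 of those qualified, 1.49%. The 150 with the widest gap were kept. The gap is the log2 ratio, after adding 0.5 CPM to both, of the lowest 7 weeks library to the highest library of 5 and 10 weeks. The 14 weeks libraries entered the choice through the mean level alone.

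The study profiled whole skin of male fish of the GRZ strain by RNA-seq. There were 4 groups, untreated as far as the labels say, at 5, 7, 10 and 14 weeks of age, with 5 libraries each and library totals of 21581757 to 35137022 counts. The labels do not say whether each library came from a separate fish, so the spread between libraries may be partly technical. On the first principal component of all tested genes, which held 42.8% of the variance, 7 weeks replicate 3, 10 weeks replicate 4 and 14 weeks replicates 3 and 4 lay from 85.4 to 189, and the other 16 libraries lay from −76.2 to 45.3.

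The turquoise killifish is an annual fish of African temporary pools that grows, matures and ages within months, and GRZ is an inbred, short-lived strain used in ageing research. Fish skin is a layered tissue. A living epidermis with mucus-secreting cells, ion-transporting cells and immune cells covers a dermis with scales, fibroblasts, vessels and pigment cells, and the pigment of males becomes conspicuous at maturity. Whole-skin RNA pools these cells, so a gene with more RNA in every cell of a type and a gene whose cell type is more numerous cannot be told apart. Gene names were not at hand. The RefSeq gene table of the species held 0 of the 26739 IDs, so the members are given by ID, without function, and the tissue label was not checked against marker genes.

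The members were about 2-fold higher at 7 weeks than at the neighbouring ages, with narrow gaps between the nearest libraries. As a description of the values that chose them, the ratio of mean CPM at 7 to that at 5 weeks had a median of 1.8 and ran from 1.20 to 3.70. The ratio of 7 to 10 weeks had a median of 1.97 and ran from 1.23 to 8.33. The ratio reached 2 in 43 members for 5 weeks and in 73 for 10 weeks. Over all 17203 IDs within the bounds the corresponding medians were 1.1 and 1.07. The lowest 7 weeks library exceeded the highest library of 5 and 10 weeks by a median of 1.13 times, from 1.05 to 1.75 times. In edgeR, 27 of the 150 were called higher at 7 than at 5 weeks, where the percentage over all tested genes was 0.391, and 111 were called lower at 10 than at 7 weeks, against 12.6%. Both contrasts were used by the choice, so nothing is read from these counts. The 27 rested on single libraries. It was 2 without 5 weeks replicate 4, 5 weeks replicate 5, 7 weeks replicate 2 or 7 weeks replicate 4, 4 without 7 weeks replicate 1 and 6 without 5 weeks replicate 3. Over all tested genes the percentage called higher without these libraries ran from 0.0103 to 0.0567. Without both 5 weeks replicates 4 and 5 the members' count was 0, without the 4 libraries that stand apart it was 63, and DESeq2 called 70. The percentages over all tested genes were then 0, 1.05 and 2.83.

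Nfu_g_1_006505 had the widest gap, 0.78 on the log2 scale. It stood at 17.9, 18.6, 17.5, 22.2 and 21.46 CPM in the 7 weeks libraries, in the order of the replicates. At 5 weeks it stood at 9.59, 7.39, 7.53, 7.51 and 6.86 CPM, at 10 weeks at 8.72, 5.60, 9.07, 9.99 and 9.04 CPM and at 14 weeks at 4.73, 8.26, 8.95, 7.86 and 8.94 CPM. The 5 libraries of 7 weeks lay above all 15 libraries of the other ages, and the libraries of 5, 10 and 14 weeks overlapped. The mean at 7 weeks was 19.53 ± 2.17 CPM (SD, n = 5), and at 14 weeks it was 7.75 ± 1.75 CPM (SD, n = 5).

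Nfu_g_1_008461 came second, with a gap of 0.64 on the log2 scale. Its 7 weeks libraries held 412, 502, 514, 458 and 316 CPM. The other ages were not uniform in this gene. At 5 weeks it stood at 191, 203, 94.4, 40.8 and 108 CPM, at 10 weeks at 39.8, 25.8, 69, 114 and 65.1 CPM, and at 14 weeks at 53.3, 39.0, 165, 167 and 79.6 CPM. Replicates 1 and 2 were the high libraries of 5 weeks, replicate 4 was that of 10 weeks, and replicates 3 and 4 were those of 14 weeks. It was also the second most abundant member at 7 weeks, at 441 ± 80.2 CPM (SD, n = 5), after Nfu_g_1_016044 at 465 ± 22.2 CPM (SD, n = 5).

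Nfu_g_1_016044 shows how small a difference could meet the rule in an even gene. Its mean was 385 ± 20.0 CPM (SD, n = 5) in the 5 weeks libraries. In those of 10 and 14 weeks it was 378 ± 28.3 and 348 ± 28.4 CPM. Its lowest 7 weeks library, replicate 1, held 444 CPM, and its highest library of 5 and 10 weeks, 5 weeks replicate 1, held 411 CPM. Per kilobase of gene the difference in abundance between the 2 genes was wider. At 7 weeks Nfu_g_1_016044 had a mean of 387 RPKM (CPM per kilobase, with each library's own depth) and Nfu_g_1_008461 a mean of 142 RPKM. At the other end of the list, the last member kept, Nfu_g_1_002438, had a lowest 7 weeks library at 2.61 CPM and a highest library of 5 and 10 weeks at 2.47 CPM. The first ID left out, Nfu_g_1_015387, had 24.7 and 23.5 CPM.

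**Figure D1:**
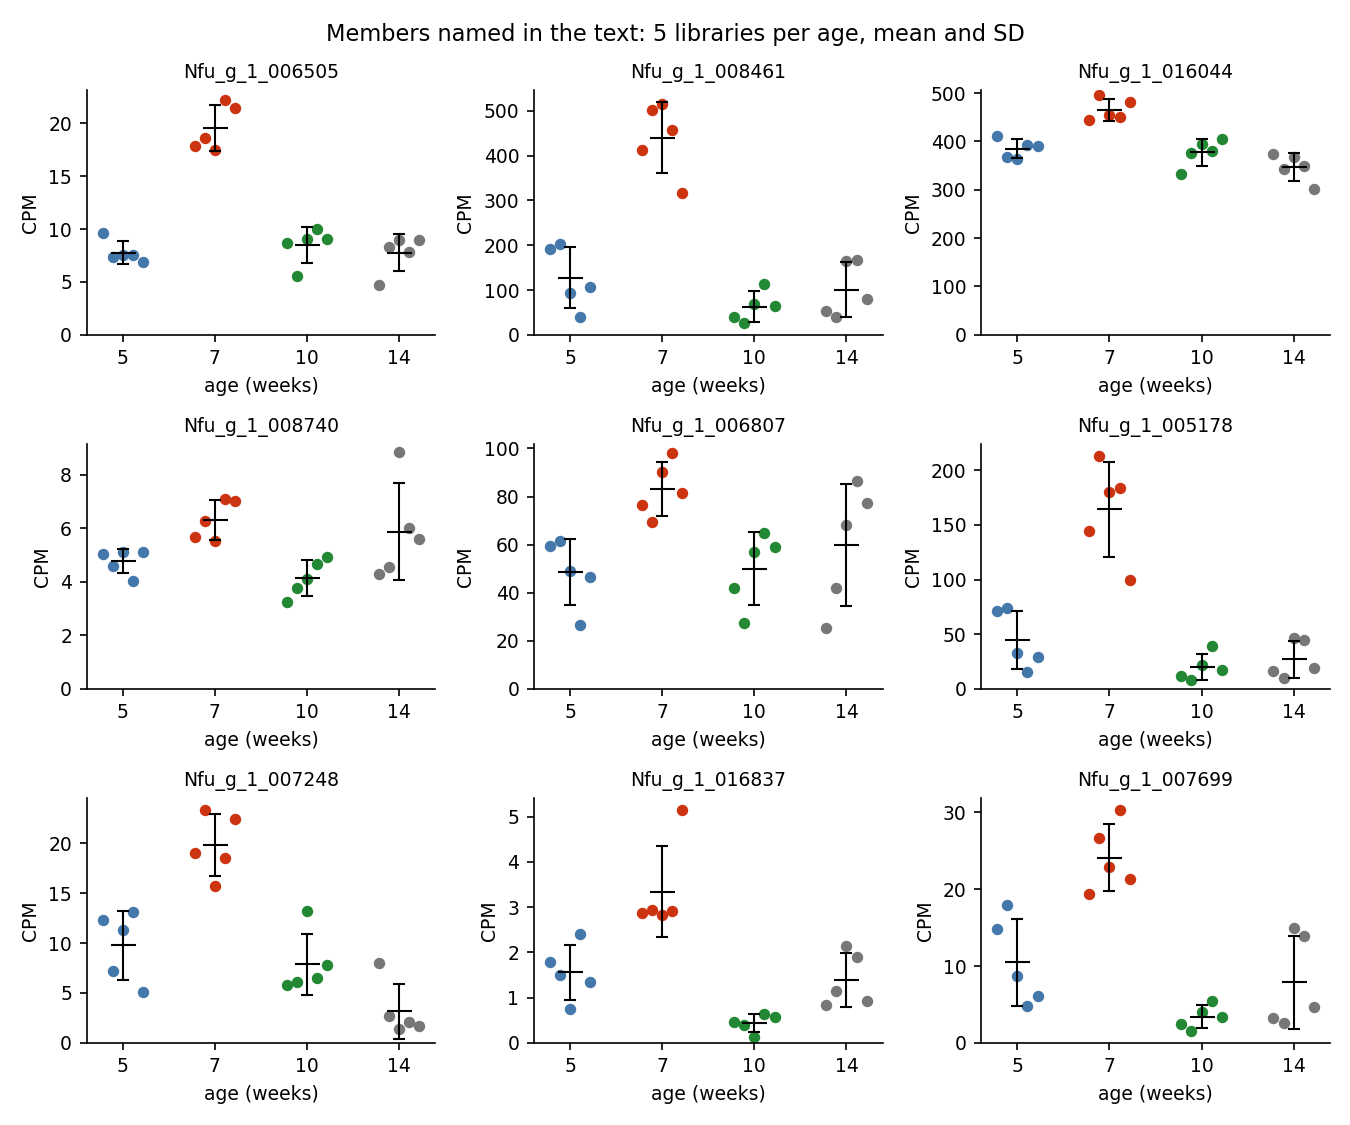
CPM of 9 members named in the text against age in weeks, with 1 point per library, the mean as a bar and the SD as error bars (n = 5 per age), each panel on its own linear scale from 0. The 5 libraries of 7 weeks lie above those of 5 and 10 weeks in every panel, as the rule requires, while those of 14 weeks range from below the other ages (Nfu_g_1_007248) to above the highest 7 weeks library (Nfu_g_1_008740).

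Summed over the list, the members took 0.964 ± 0.0787% of the counts at 7 weeks (SD, n = 5), 0.536 ± 0.116% at 5 weeks, 0.479 ± 0.0867% at 10 weeks and 0.564 ± 0.179% at 14 weeks. The median member stood at 4.93 to 5.23 in the 7 weeks libraries on the log2(CPM + 0.5) scale, at 3.81 to 4.53 at 5 weeks and at 3.53 to 4.36 at 10 weeks. The 14 weeks libraries fell apart on this measure. Replicates 1, 2 and 5 stood at 4.00, 3.95 and 4.03, and replicates 3 and 4 at 4.90 and 4.71, above every library of 5 and 10 weeks and below every one of 7 weeks. The median over all 19192 tested genes moved with the libraries too, from 2.87 in 10 weeks replicate 2 to 4.01 in 14 weeks replicate 4, and was 3.78 in 7 weeks replicate 3 and 3.75 in 10 weeks replicate 4. The part of these general shifts in the members' levels was not tested.

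**Figure D2:**
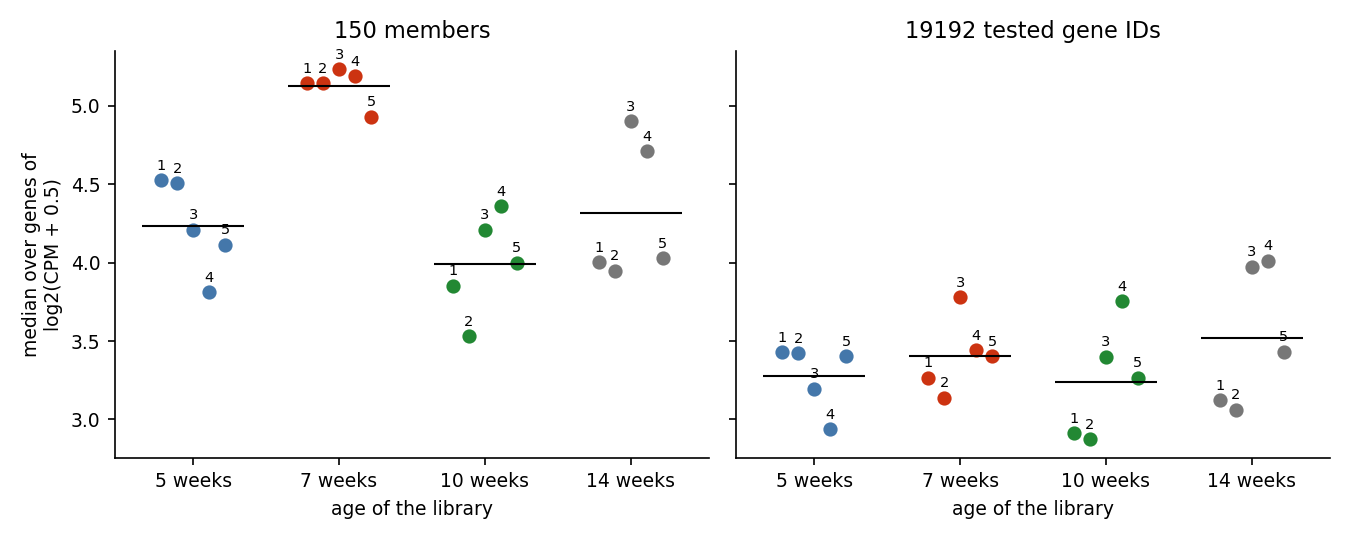
Median log2(CPM + 0.5) in each of the 20 libraries, over the 150 members (left) and over the 19192 tested gene IDs (right), with the replicate number above each point and the mean of each age as a line. Over the members the 7 weeks libraries lie from 4.93 to 5.23, above all others, while over all tested genes they lie within the range of the other ages and 14 weeks replicates 3 and 4 are the highest, at 3.97 and 4.01.

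The choice depended on how libraries were scaled. CPM on the library total takes no account of a few abundant genes that fill more of one library than of another. TMM factors, edgeR's correction for this, ran from 0.742 in 5 weeks replicate 4 to 1.31 in 14 weeks replicate 4. With TMM, 90 of the 150 members still had every 7 weeks library above every library of 5 and 10 weeks, and 60 did not. With DESeq2's size factors 87 did. The median member kept its separation in both scalings, a separation that the choice had set on CPM. With TMM it stood at 4.87 to 5.29 at 7 weeks, against 4.12 to 4.46 at 5 weeks, 3.89 to 4.19 at 10 weeks and 4.00 to 4.58 at 14 weeks.

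A library that took no part in a choice has values that this choice did not fix. The list was therefore chosen again with each library left out in turn, and the left-out library was read in the 150 genes chosen without it. The limit it was read against, the highest remaining library of 5 and 10 weeks, was itself held low by that choice. The shares over all IDs carry no such condition. The contrast with them was thus partly set in advance and is descriptive. Left-out 7 weeks replicates 1, 2, 3 and 4 exceeded every library of 5 and 10 weeks in 123, 117, 134 and 147 of 150 genes. Over all IDs within the bounds the same libraries did so in 10.6%, 12.9%, 30.2% and 19.9%. Replicate 5 did so in 80 of the 150 chosen without it (53.3%, against 7.14% of all IDs), and it reached the level of the lowest of the other 7 weeks libraries in 23. Replicate 5 was also the lowest 7 weeks library in 70 of the 150 members. Without it 729 IDs qualified in place of 257, and 72 of the 150 members were chosen again. Membership thus rested more on this library than on any other that was left out, and the other 19 gave 257 to 381 qualifying IDs.

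Left-out libraries of 5 and 10 weeks differed as much among themselves. In the genes chosen without them, 5 weeks replicates 1 and 2 exceeded every other library of 5 and 10 weeks in 65 and 81 of 150 genes, and replicates 3, 4 and 5 did so in 17, 8 and 10. At 10 weeks replicate 4 did so in 68, and replicates 1, 2, 3 and 5 in 11, 3, 24 and 15. For 10 weeks replicate 4 the 45.3% among the chosen genes was not far above its 35.4% over all IDs within the bounds. For 5 weeks replicates 1 and 2 the shares were 43.3% and 54%, against 10.6% and 17.4%. A choice without a library favours genes that are low in the remaining libraries of 5 and 10 weeks. An excess over all IDs was thus partly set by the choice. Other libraries of these ages had it too, such as 5 weeks replicate 3 at 11.3% against 3.15%. Only 10 weeks replicate 2 went the other way, at 2% against 4.71%. These 2 libraries were also the highest of 5 and 10 weeks for 42 and 45 of the 150 members, and 10 weeks replicate 4 was so for 24.

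**Figure D3:**
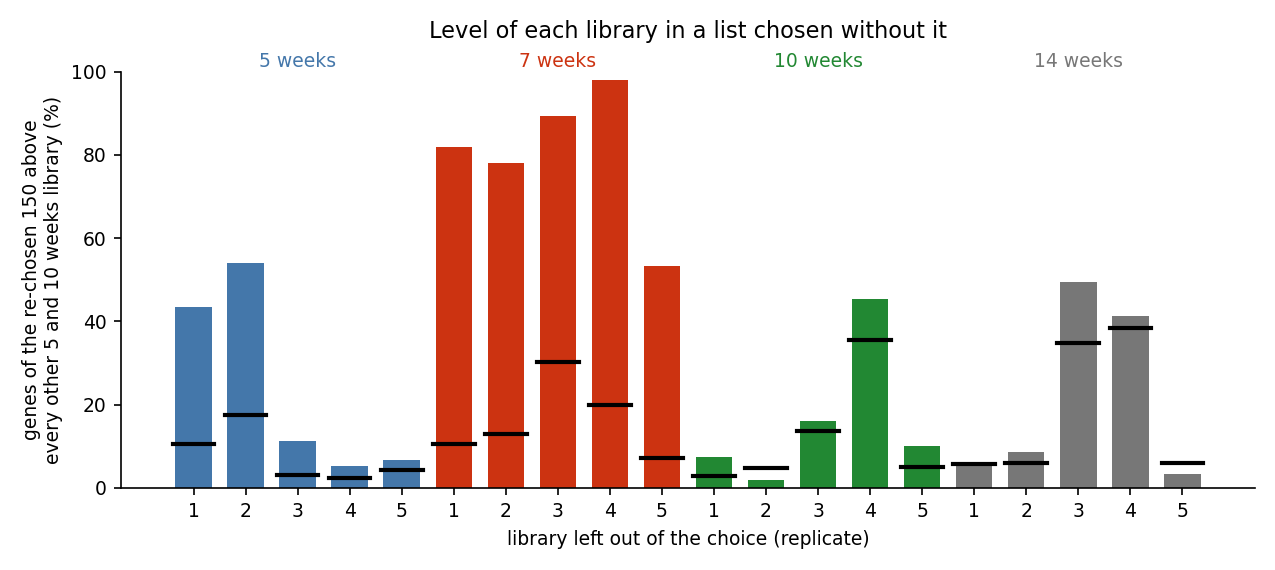
For each of the 20 libraries, the percentage of 150 genes, chosen by the same rule without that library, in which it exceeded every other library of 5 and 10 weeks, as bars from 0, with the same percentage over all IDs within the bounds as a black line. Bars of 7 weeks run from 53.3% in replicate 5 to 98% in replicate 4, those of 5 weeks replicates 1 and 2, 10 weeks replicate 4 and 14 weeks replicates 3 and 4 from 41.3% to 54%, and the other libraries from 2% to 16%.

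At 14 weeks the members' levels differed between libraries, and replicates 3 and 4, where the median member was highest, also had the highest median over all tested genes. Replicates 1, 2 and 5 exceeded every library of 5 and 10 weeks in 8, 13 and 5 of the 150 members (5.33%, 8.67% and 3.33%), against 5.72%, 5.95% and 6.04% of all IDs within the bounds. Replicate 4 did so in 62 members (41.3%), against 38.9% of all IDs. These shares lay near those over all IDs and say nothing particular of the members. Replicate 3 did so in 74 members (49.3%), against 35.3% of all IDs. In the members the choice held the libraries of 5 and 10 weeks below those of 7 weeks, a condition that all IDs lack. Its part in this difference was not tested. A 14 weeks library reached the lowest 7 weeks library in 0, 5, 59, 46 and 4 members, in the order of the replicates. Over all IDs within the bounds these percentages were 61.4, 60.6, 80.5, 77.1 and 69.7, and the high 7 weeks level of the members was set by the choice. In 55 members both of these libraries exceeded every library of 5 and 10 weeks, in 26 members 1 of them did, and in 69 neither did. They were the 2 highest of the 14 weeks libraries in 89 members, where 43.3% of all IDs within the bounds had that order. Of the 55, 10 weeks replicate 4 was the highest 10 weeks library in 40. Of the 69, it was so in 27, and of all 150 members in 84. These 3 libraries all lay apart on the first component, and the share over all IDs is not given here. Nothing particular of the members is therefore read from these counts. In 79 members every 14 weeks library lay below every 7 weeks library, against 5.69% of all IDs within the bounds, with the 7 weeks side set by the choice.

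**Figure D4:**
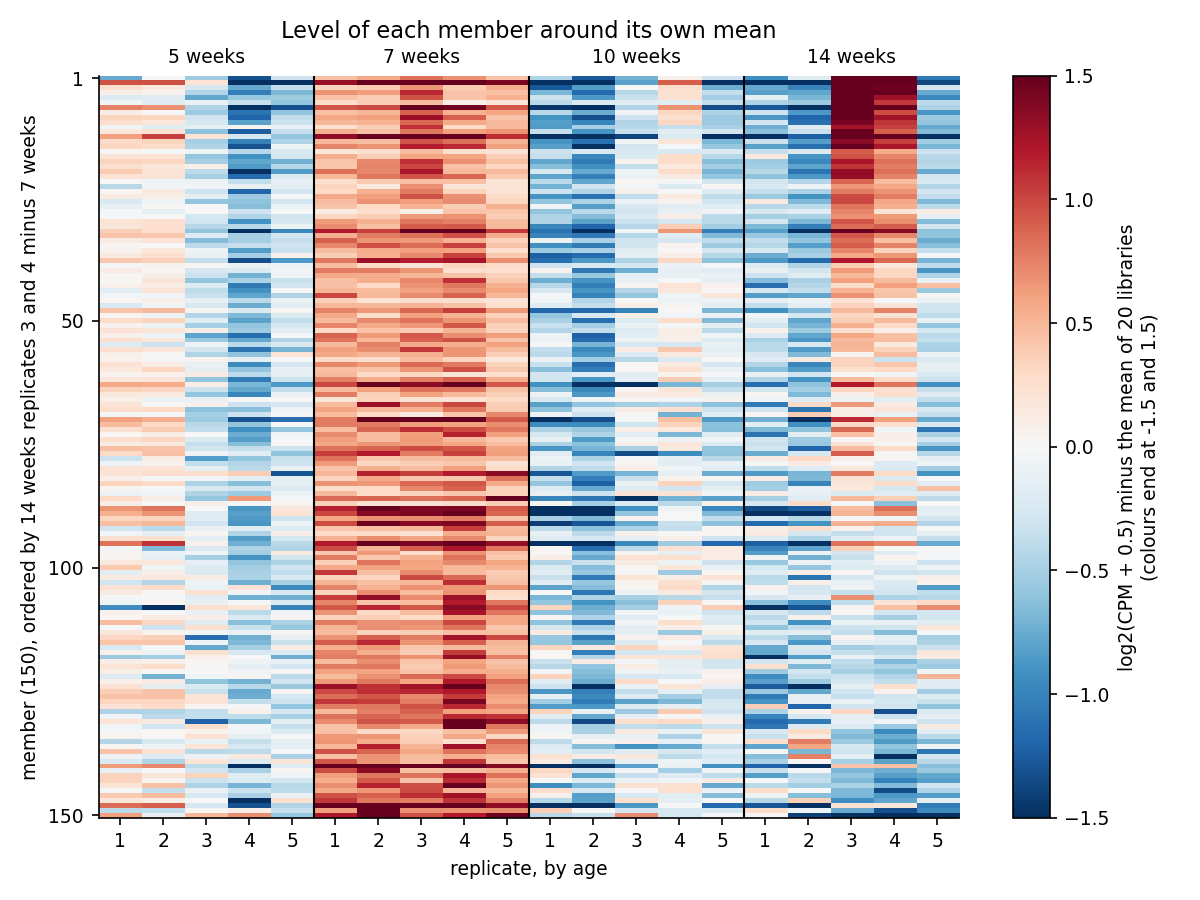
Level of each of the 150 members (rows) in the 20 libraries (columns, grouped by age) as log2(CPM + 0.5) minus the member's mean over the 20 libraries, with rows ordered by 14 weeks replicates 3 and 4 minus 7 weeks. The 7 weeks columns are raised in all rows by the rule, 14 weeks replicates 3 and 4 are raised in the upper rows and low in the bottom rows, and 5 weeks replicates 1 and 2 stand above replicates 4 and 5 in 112 of 150 members.

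The median of the 14 weeks libraries exceeded every library of 5 and 10 weeks in 5 members, against 3.26% of all IDs, and reached the lowest 7 weeks library in 1, against 72.9%. These were Nfu_g_1_008740, which met both, and Nfu_g_1_006807, Nfu_g_1_002374, Nfu_g_1_014881 and Nfu_g_1_011655. The last 3 of these names were chosen after their values were seen. Both counts rested on single libraries of 14 weeks. Without replicates 1, 2, 3, 4 and 5 in turn the first was 35, 36, 1, 3 and 32, and the second was 16, 20, 0, 0 and 17. Without all 4 libraries that stand apart they were 3 and 0. The shares over all IDs in these settings are not given here, so nothing particular of the members is read from the changes.

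Nfu_g_1_008740 had the highest 14 weeks median relative to 7 weeks. It stood at 4.29, 4.57, 8.85, 6.0 and 5.61 CPM at 14 weeks and at 5.67, 6.25, 5.51, 7.08 and 7.03 CPM at 7 weeks. Replicates 1 and 2 of 14 weeks lay within the 5 weeks range of 4.05 to 5.10 CPM, and replicate 3 lay above all 7 weeks libraries. Nfu_g_1_006807 came next. Its 14 weeks libraries held 25.3, 41.9, 68.1, 86.6 and 77.4 CPM, and those of 7 weeks held 76.5, 69.4, 90.3, 98.0 and 81.7 CPM. Replicates 4 and 5 of 14 weeks thus lay within the 7 weeks range in this gene, replicate 3 just below it, and replicate 1 below all other libraries.

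The widest fall from the 7 to the 14 weeks median was that of Nfu_g_1_005178. It went from 145, 213, 181, 184 and 99.8 CPM at 7 weeks to 15.96, 10.2, 46.2, 44.3 and 18.9 CPM at 14 weeks. Its 10 weeks libraries, at 11.8, 8.54, 22, 39.4 and 17.4 CPM, overlapped those of 14 weeks. Its 5 weeks libraries stood at 70.9, 74.2, 32.7, 15.7 and 28.9 CPM, so replicates 1 and 2 of that age lay between the 7 weeks libraries and the rest.

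Nfu_g_1_007248 followed. It stood at 8.01, 2.68, 1.38, 2.09 and 1.71 CPM at 14 weeks, with replicate 1 the highest. Replicates 2 to 5 lay below every library of the other ages, which ran from 5.14 CPM in 5 weeks replicate 5 to 23.3 CPM in 7 weeks replicate 2. Replicate 1 lay within the range of 5 and 10 weeks. Its mean fell from 19.8 ± 3.12 CPM (SD, n = 5) at 7 weeks to 7.86 ± 3.08 CPM at 10 weeks and 3.18 ± 2.74 CPM at 14 weeks, as a description.

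In edgeR 102 of the 150 members were called lower at 14 than at 7 weeks, against 8.16% of all tested genes, and 0 were called higher, against 9.39%, with a median log2 fold change of −0.83 against 0.13 over all tested genes. The high 7 weeks level was a condition of membership, so these values are descriptive. Between 14 and 5 weeks edgeR called 0 members higher, against 0% of all tested genes, and 0 lower, against 0.0104%. The lower count was 9 without 14 weeks replicate 1, 7 without replicate 2 and 2 without replicate 5, and the higher count was 1, 1 and 2. The members' shares called lower were then 6%, 4.67% and 1.33%, against 1.34%, 2.82% and 0.934% of all tested genes. Their shares called higher were 0.667%, 0.667% and 1.33%, against 6.38%, 8.21% and 5.69%. Without 5 weeks replicates 4 and 5 edgeR called 5 members lower, 3.33%, against 4.07% of all tested genes, and 0 higher, against 3.43%. Without the 4 libraries that stand apart it called 0 members in either direction, against 0% of all tested genes. At an unadjusted p under 0.05, 2 members were higher and 20 lower at 14 weeks, together 14.7%, against 23.5% of all tested genes. The 20 was 11 without 5 weeks replicate 1 or replicate 2. Both directions together, the members' share was then 9.33% or 8.67%, against 17.7% or 17.5% of all tested genes. DESeq2 called 1 member higher in this comparison, 0.667%, against 8.87% of all tested genes. It called 4 lower, 2.67%, against 2.83%. Between 14 and 10 weeks edgeR called 0 members higher and 0 lower, against 0% of all tested genes in each direction. At an unadjusted p under 0.05, 21 were higher and 6 lower, together 18%, against 18.7% of all tested genes. The 21 was 2 without 14 weeks replicate 3, 4 without 14 weeks replicate 4, 10 without 10 weeks replicate 2, 11 without 10 weeks replicate 3, 14 without 10 weeks replicate 1 or 7 weeks replicate 3 or 4, and 36 without 14 weeks replicate 2. Both directions together, the members' share was 5.33% without 14 weeks replicate 3, 6.67% without replicate 4 and 33.3% without replicate 2. Over all tested genes these shares were 6.59%, 8.57% and 24.9%, so they moved with the same libraries. Without the 4 libraries that stand apart 2 members were higher and 2 lower, together 2.67%, against 5.74% of all tested genes. DESeq2 called 1 member higher and 1 lower, 0.667% each, against 1.1% and 0.302% of all tested genes. limma voom called 0 members in either comparison. The members' median log2 fold changes were −0.17 for 14 against 5 weeks and 0.02 for 14 against 10 weeks, beside 0.07 and 0.08 over all tested genes. The second was −0.07 with upper-quartile factors and also without the 4 libraries that stand apart, so its sign is not settled. These 3 comparisons share their libraries with each other and with the choice of members.

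Between 5 and 10 weeks the rule set the same upper limit for both ages and did not fix the direction. The limit need not bear evenly on the 2 ages. Over all IDs within the bounds, 10 weeks replicate 4 exceeded every other library of 5 and 10 weeks in 35.4%. The other libraries of these ages did so in 2.38% to 17.4%. Both ages were used by the choice, so values and p-values of this comparison are descriptive. The part of the choice in them was not tested. The log2 fold change was below 0 in 116 members and above 0 in 34, where 52.0% of all tested genes were above 0, and the median was −0.17 against 0.03. The size of this shift moved with single libraries. The median was −0.08 with 53 members above 0 without 10 weeks replicate 4, and −0.11 with 50 above 0 without 5 weeks replicate 1. Without 10 weeks replicate 3 it was −0.12 with 47 above 0, and without 10 weeks replicate 1 it was −0.23 with 20 above 0. Without the 4 libraries that stand apart it was −0.11 with 49 above 0, and over all tested genes it was then −0.01. Single genes passed the test in few cases. edgeR called 6 members lower at 10 weeks, 4%, against 4.23% of all tested genes, and 0 higher, against 2.38%. Of the 150, 23 had an unadjusted p under 0.05 with a lower level at 10 weeks and 1 with a higher level, together 16%, against 25.2% of all tested genes. DESeq2 and limma voom also called 0 higher.

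Nfu_g_1_016837 had the largest fall of the 6. It stood at 1.79, 1.495, 0.753, 2.41 and 1.34 CPM at 5 weeks and at 0.449, 0.385, 0.123, 0.648 and 0.565 CPM at 10 weeks, so the ages did not overlap. The log2 fold change was −1.91 (SE 0.41; adjusted p = 0.0175, edgeR). Counts of Nfu_g_1_016837 were low, at 12, 11, 4, 14 and 14 in the 10 weeks libraries. The lowest 5 weeks library, replicate 3, held 23, so the gap between the ages was narrow in counts. Nfu_g_1_007699 fell from 14.8, 17.9, 8.70, 4.78 and 6.10 CPM to 2.43, 1.58, 3.98, 5.51 and 3.35 CPM. The 2 ages overlapped by 5 weeks replicate 4 and 10 weeks replicate 4, and the log2 fold change was −1.69 (SE 0.39; adjusted p = 0.0215, edgeR). The other 4 called members fell by 0.58 to 1.35 on the log2 scale.

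The count of 6 rested on single libraries. It was 0 without 5 weeks replicate 1 or replicate 2, 3 without 5 weeks replicate 3, 2 without 10 weeks replicate 2 and 1 without 10 weeks replicate 3. Over all tested genes the percentages called lower were then 0.402, 0.248, 0.84, 1.35 and 0.712. Leaving out 5 weeks replicate 4 raised the members' count to 10, leaving out 5 weeks replicate 5 to 11 and leaving out 14 weeks replicate 1 to 10. The members' shares were then 6.67%, 7.33% and 6.67%, against 6.56%, 6.04% and 5.08% of all tested genes. The calls over all tested genes thus moved with the same libraries. DESeq2 called 14, or 9.33%, against 7.24% of all tested genes. Without the 4 libraries that stand apart 17 were called, or 11.3%, against 7.75%. Without both 5 weeks replicates 4 and 5 it was 14, or 9.33%, against 9.26%. With limma voom it was 6, or 4%, against 3.66%. In the edgeR fit to the 20 libraries with TMM factors, the members' share thus lay a little below that of all tested genes. In these 4 settings it was level with it or above it. In edgeR it was 5.33% against 4.46% with upper-quartile factors, and 4% against 3.11% without the filter on low counts. The shares lay on both sides of those over all tested genes, so nothing particular of the members is read from them. The 5 weeks libraries differed within their age in the members. Replicates 1 and 2 both lay above replicates 4 and 5 in 112 of 150, where 44.0% of all IDs within the bounds had that order.

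**Figure D5:**
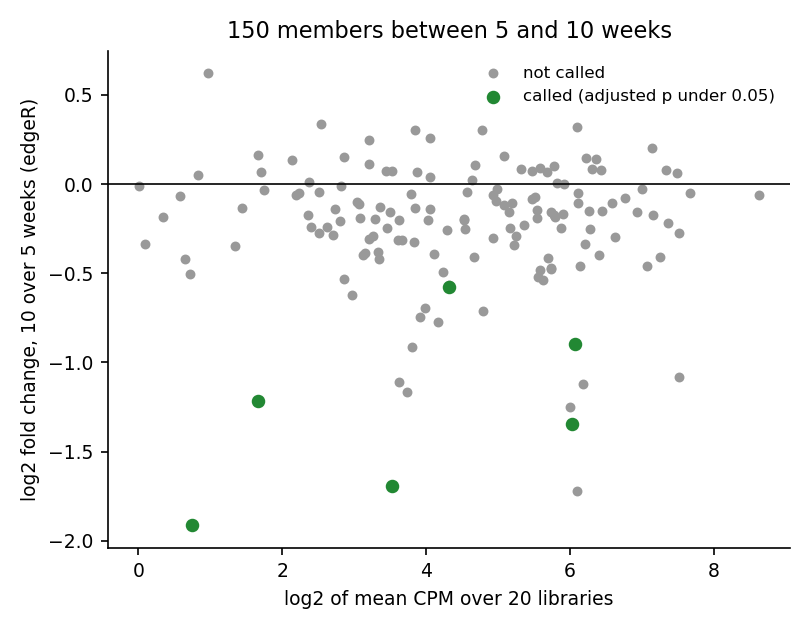
edgeR log2 fold change of 10 over 5 weeks for each of the 150 members against the log2 of its mean CPM over 20 libraries, with the 6 members at an adjusted p under 0.05 in green. Most points lie below 0 (116 of 150), and the called members lie between −0.58 and −1.91.

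The members with the widest fall from 7 to 10 weeks shared a finer pattern, parts of which were also frequent in the whole list or over all IDs. This group was picked after the values were seen, as the 11 members with at least a 4-fold ratio of means, and it is described without a test. Nfu_g_1_008461, Nfu_g_1_005178, Nfu_g_1_016837 and Nfu_g_1_007699 belong to it. All 11 also had at least a 2-fold ratio of 7 to 5 weeks. In 10 of the 11, 5 weeks replicates 1 and 2 lay above replicates 3, 4 and 5. In 9, replicate 4 was the highest 10 weeks library, and in 10, replicates 3 and 4 were the 2 highest of 14 weeks. The median member of the group stood at 0.594 and 0.604 of its 7 weeks mean in 5 weeks replicates 1 and 2 and at 0.235 to 0.367 of it in replicates 3, 4 and 5. It stood at 0.0997 to 0.317 of it at 10 weeks. At 14 weeks replicates 3 and 4 stood at 0.633 and 0.638 of it, and replicates 1, 2 and 5 at 0.153 to 0.213. Pearson's r between these genes over the 20 libraries had a median of 0.87 and ran from 0.63 to 0.99, in genes chosen by the same libraries. Age means were left in, and the genes were picked for a large difference between ages, so a high r was partly set by the choice.

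The extreme case in the group was Nfu_g_1_000186, named after its values were seen. It stood at 79.2, 93.3, 190, 92.7 and 85.4 CPM at 7 weeks and at 62.0, 61.8, 36.6, 7.20 and 10.8 CPM at 5 weeks. At 10 weeks it held 60.1 CPM in replicate 4 and 3.05 to 18.05 CPM in the other 4 libraries. At 14 weeks it held 368 and 246 CPM in replicates 3 and 4 and 6.51 to 12 CPM in the other 3. The libraries apart on the first component were thus the highest of their ages in this gene at 7, 10 and 14 weeks.

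As a description, r within ages was higher between members than between IDs in general. After removing each age's mean, Pearson's r between pairs of members over the 20 libraries had a median of 0.40, against 0.21 over all pairs of the 17203 IDs within the bounds. Without the 4 libraries that stand apart the medians were 0.41 and 0.18, over 16 libraries. In the 5 libraries of 14 weeks alone, which the rule used through the mean level only, they were 0.41 and 0.19. The quartiles there were wide, −0.28 and 0.84 between members and −0.44 and 0.69 between all IDs. Of the pairs, 65.1% and 57.6% were positive. Replicates 3 and 4 were the 2 highest 14 weeks libraries in 89 members and in 43.3% of all IDs. Their part in these values was not tested. The members also had a higher level, with a median of 23.2 CPM against 13.6 CPM. The part of level and of the choice in these r values was not tested. These pairs share their libraries and depth, and the members were chosen on 15 of the libraries. The members were even at 7 weeks, where the SD of log2 CPM over the 5 libraries had a median of 0.20 against 0.33 over all IDs, in libraries that the rule used. It was 0.35 at 5 weeks and 0.37 at 10 weeks, against 0.38 and 0.42 over all IDs. At 14 weeks, which the rule did not limit, it was 0.53 against 0.56 over all IDs.

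The order of the 4 age means was not the same in all members. In 144 of the 150 the mean was highest at 7 weeks, and in 6 it was highest at 14 weeks. The most frequent order from high to low, 7, 14, 5 and 10 weeks, held 48 members. It was followed by 7, 5, 14 and 10 weeks with 31 and by 7, 5, 10 and 14 weeks with 30. Of all IDs within the bounds, 6.46%, 10.9% and 4.39% had these orders, and the lead of 7 over 5 and 10 weeks was set by the choice. The highest single library of the 20 was one of 7 weeks in 119 members, with 55 of those in replicate 4. It was one of 14 weeks in 31, with 30 of those in replicate 3. The rule left no other age for the highest library, and the share over all IDs is not given here.

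The members also differed from the other IDs in level and length, as a description. Their mean over all libraries had a median of 23.2 CPM, from 1.01 to 394 CPM, against 13.6 CPM over all IDs within the bounds. Of the 150, 64 lay above the upper quartile of these IDs by mean CPM and 19 below the lower. Gene length, recovered from the counts and the deposited RPKM values, had a median of 3892.5 bases in the members, from 312 to 16745, against 2774 bases. Above 4762 bases, the upper quartile of these IDs, lay 57 members, and up to the lower quartile of 1407 bases lay 22. The part of length in the members' profile was not tested. Gene IDs carry a running number, and 2 pairs of members had consecutive numbers. The files give no positions, so whether such genes are neighbours in the genome was not examined here.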

How the data were processed

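Raw counts by gene ID for 20 skin libraries, deposited by the authors, were the measurement, with a second deposited table of RPKM values. The labels' protocols give total RNA and TruSeq RNA kits of version 2. The submitters' processing notes name CASAVA 1.8.2, featureCounts 1.4.6-p4 and STAR 2.4.1d. Build, annotation and strand setting were not given in the sources used here. How reads shared by overlapping or nearly identical genes were counted is not known here, so the counts of such genes are less certain. Replicates were numbered in accession order within the age in the labels.

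CPM is the count times 1000000 over the library total. The tested genes, 19192, passed edgeR's filterByExpr, all 150 members among them. edgeR 4.0.16 (R 4.3.3) fitted 4 group means to all 20 libraries with TMM factors, glmQLFit and glmQLFTest, with 16 residual degrees of freedom and Benjamini-Hochberg adjustment over all tested genes at 0.05. The SE is the log2 fold change over the square root of F. DESeq2 1.42.0 and limma voom (limma 3.58.1) were alternatives. Scripts were tested on simulated data.

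The deposited RPKM values were used for gene length alone. They follow from the counts with a series of 25 depths that repeats down the rows, of which 20 are the totals of these libraries. Lengths recovered with it, as whole bases, gave 99.9% of the values of at least 0.5 RPKM within 0.1% or the last decimal.

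Within ages, chi-square over its degrees of freedom was 70.8 or more for each library pair, and no library was counted as a repeat. Members and lists were chosen with earlier results of these data known. Genes are named by rule: the 2 widest gaps, the last member and the first ID left out, the 2 most abundant at 7 weeks, the 2 highest and 2 lowest by 14 against 7 weeks medians, and the 2 largest rises and falls called from 5 to 10 weeks. No member was called higher at 10 weeks, so there were no rises to name.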

Additional observations from a re-analysis of the deposited data

Results flagged for a closer look

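Of 52 sets of 5 libraries examined (the members' median and sum and the CPM of 11 named IDs, at each of 4 ages), 6 held a library far from the other 4 by Dixon's test, which flags about 1 in 20 by chance. Nfu_g_1_006505 was high in 5 weeks replicate 1 at 9.59 CPM, against 6.86 to 7.53 CPM in the others. The same gene was low in 10 weeks replicate 2 at 5.60 CPM, against 8.72 to 9.99 CPM, and low in 14 weeks replicate 1 at 4.73 CPM, against 7.86 to 8.95 CPM. Nfu_g_1_016837 was high in 7 weeks replicate 5 at 5.15 CPM, against 2.81 to 2.95 CPM. Nfu_g_1_007248 was high in 10 weeks replicate 3 at 13.2 CPM, against 5.77 to 7.75 CPM, and in 14 weeks replicate 1 at 8.01 CPM, against 1.38 to 2.68 CPM. The causes were not tested.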

How the results depend on the processing

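Of the 150 members, 74 were chosen again with CPM on TMM library sizes and 72 with DESeq2 size factors. Leaving out 1 library gave 257 to 729 qualifying IDs and 72 to 150 members chosen again. Without the 4 libraries apart on the first component, a setting added after the data were seen like that without 5 weeks replicates 4 and 5, 399 IDs qualified. Members called lower at 10 than at 5 weeks numbered 14 with DESeq2, 17 without the 4 libraries, 14 without 5 weeks replicates 4 and 5, and 0 to 11 on leaving out 1 library. Members called lower at 14 than at 7 weeks ranged from 76 to 103 on leaving out 1 library and from 68 to 118 in the other settings. Over all tested genes the percentage called lower ran from 4.62 to 8.5 and from 5.71 to 10.6. The high 7 weeks level of the members was set by the choice. DESeq2 called 1 member higher at 14 than at 5 weeks, Nfu_g_1_001878, and 1 higher than at 10 weeks, Nfu_g_1_016837. Over all tested genes it called 8.87% and 1.1% higher. Leaving out 1 library gave 0 to 2 for the first and 0 for the second. Members with the 14 weeks median above every library of 5 and 10 weeks numbered 27 by the mean, 3 with TMM, 3 without the 4 libraries and 1 to 36 on leaving out a 14 weeks library. Those with the median at or above the lowest 7 weeks library numbered 13, 3, 0 and 0 to 20. For both of these counts the shares over all IDs in the same settings are not given here. The causes of these changes were not tested. No paired analysis was possible because replicate numbers were given in accession order and pair no libraries. Low counts limit a few members, with as few as 4 counts in a library.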
